A study of Mus musculus with 3 samples.

Results

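The genes described here are 10 genes of antigen presentation by the major histocompatibility complex (MHC), read in 3 cell fractions of mouse epididymal fat. They are the class II genes H2-Aa, H2-Ab1, H2-Eb1, Cd74, H2-DMa, H2-DMb1 and Ciita and the class I genes B2m, H2-K1 and H2-D1. They were chosen by name, with earlier results of these data known, and were read at every array probe that carries the gene's name, which gave 19 probes for 10 of the 37324 genes on the arrays.

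All cells came from epididymal fat of 20-week-old male C57/BL mice after digestion with collagenase, and no transgene or drug is named for any group. After a spin at 9 g for 1 s, the lower phase was taken as stromal vascular cells (SVC), and the floating cells were spun at 226 g for 3 min, which left mature adipocytes (MA) afloat and small proliferative adipocytes (SPA) in the sediment. SVC and SPA were then grown in DMEM, a standard culture medium, to 90% confluency, whereas no culture is described for MA, so in any comparison with MA the cell type cannot be told apart from the culture. The sample titles also give MA another date than SVC and SPA, and the number of mice behind each sample is not given in the sources used here. Each group is 1 array, so no difference below has a replicate check, no test could be run and no p-value is given. The only error that could be measured is that within an array. Over 300 probes spotted 10 times, the median SD of the log2 signal was 0.04 in SVC, 0.04 in SPA and 0.05 in MA, and it says nothing about how much another sample of the same group would differ.

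MHC molecules carry peptides to the cell surface, where T cells read them. Class I molecules pair a heavy chain with β2-microglobulin, are found on nearly all nucleated cells and mostly show peptides of the cell's own proteins to CD8+ T cells. Class II molecules pair an alpha with a beta chain, are made mainly by professional antigen-presenting cells such as dendritic cells, macrophages and B cells, and show peptides of proteins taken up from outside to CD4+ T cells. Their genes are switched on by the transactivator CIITA, which docks on factors bound to the X and Y boxes of class II promoters. In fat, macrophages and dendritic cells carry class II, and adipocytes can carry it too.

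Of the 7 class II genes, 5 were at least 5-fold higher in MA than in both cultured fractions, beside 5.47% of all genes read for SPA and 5.72% for SVC, and the class I genes were moderately higher. The 5 include Ciita, whose probes disagree and whose call is lost under some settings. The genes of the class II chains that bind peptide and of their invariant chain (H2-Aa, H2-Ab1, H2-Eb1 and Cd74) were between 34.4-fold and 78.9-fold higher in MA than in SPA at their brightest probes. The class I genes were between 2.54-fold and 3.21-fold higher. Between SPA and SVC, none of the 9 genes measured on both arrays reached 2-fold in either direction. Few genes did in that comparison, with 3.89% of all genes read at least 2-fold higher in SPA and 3.24% lower. In such mixtures of cells, a larger share of a cell type and more RNA per cell cannot be told apart. Adipocyte and endothelial marker genes were also higher in MA, and macrophage and lymphocyte markers were mixed, as described further below.

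**Figure D1:**
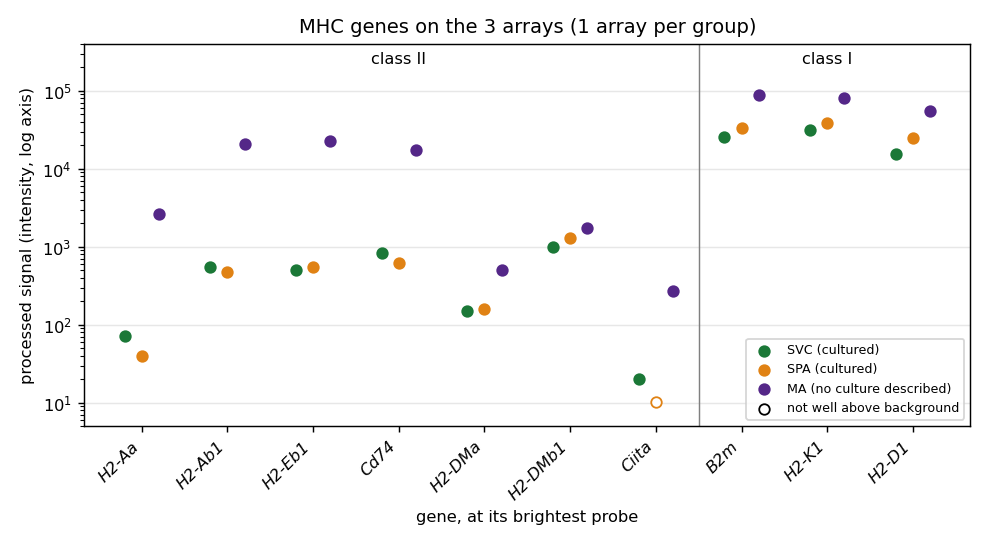
Processed signal (log axis, intensity units) of the 10 MHC genes at the brightest probe of each, with 1 point per array for SVC, SPA and MA. An open circle marks a signal that was not well above background. Signals of different genes come from different probes and are not to be set against each other. H2-Aa, H2-Ab1, H2-Eb1, Cd74 and Ciita lie far higher in MA than in the other groups, while the class I genes B2m, H2-K1 and H2-D1 lie at least 2.54-fold above SPA in MA.

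H2-Aa encodes the alpha chain of I-A, the class II molecule of this mouse strain. Its processed signal, which is the probe's brightness after background subtraction, was 72.3 in SVC, 39.8 in SPA and 2620 in MA. MA was thus the only array on which the gene was bright, although all 3 signals were well above background. After each array was scaled to the 75th percentile of its own signals, H2-Aa was 78.9-fold higher in MA than in SPA (log2 ratio 6.30) and 42.7-fold higher than in SVC (log2 ratio 5.41). It was 1.85-fold lower in SPA than in SVC (log2 ratio -0.89), a difference that shrank to a log2 ratio of -0.43 with the normexp background correction. The 60-base probe lies at chr17:34421285-34421344 on the minus strand of mm9, the build of the array annotation.

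H2-Ab1 encodes the beta chain that pairs with the product of H2-Aa. Its brightest probe gave 558 in SVC, 479 in SPA and 20637 in MA, so the gene was low on both cultured arrays and bright in MA. The ratio was 51.8-fold for MA over SPA and 43.5-fold for MA over SVC, and SPA was 1.19-fold lower than SVC. The other 3 probes of the gene gave 523, 427 and 19777, then 347, 356 and 13185, and then 63.9, 51.9 and 2977, each in the order SVC, SPA and MA. All 4 probes therefore had the same pattern, with MA between 44.5-fold and 68.9-fold above SPA and between 43.5-fold and 54.8-fold above SVC. The 4 probes lie at chr17:34406296-34406355, chr17:34406305-34406363, chr17:34406059-34406118 and chr17:34404357-34404416 on the plus strand of mm9. The first and the second overlap by 51 bases, of which 50 are the same, so they are not independent readings. They are shown over 30 bases of the overlap because they read H2-Ab1 with 1 base changed, marked by a capital. Counted from 1 at the 5′ end of the first probe, the change is T51C.
H2-Ab1 first probe: agattacaaataaacgagacTcagactctg
H2-Ab1 second probe: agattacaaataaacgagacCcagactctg
With that base changed, the ratio of MA over SPA was 5.69 for the first probe and 5.80 for the second on the log2 scale.

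H2-Eb1 encodes the beta chain of I-E, whose alpha chain gene is defective in the H-2b haplotype of C57BL mice. Its signal was 498 in SVC, 559 in SPA and 22867 in MA. It was thus nearly the same in SPA and SVC, with a ratio of 1.10-fold. In MA it was 49.1-fold higher than in SPA and 54.0-fold higher than in SVC. The probe lies at chr17:34453075-34453134 on the plus strand of mm9. H2-Ea-ps, the defective alpha chain gene, was not well above background on any array, so no ratio can be given for it.

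Cd74 encodes the invariant chain, which escorts new class II molecules and blocks their groove until they reach the endosome. Its signal was 847 in SVC, 615 in SPA and 17604 in MA. The ratio was 34.4-fold for MA over SPA and 24.5-fold for MA over SVC. SPA was 1.40-fold lower than SVC, the same direction as for H2-Aa and H2-Ab1 and opposite to H2-Eb1.

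H2-DMa and H2-DMb1 encode the chains of H2-DM, the endosomal molecule that exchanges the remnant of the invariant chain for other peptides. H2-DMa gave 151 in SVC, 161 in SPA and 510 in MA, which was 3.80-fold higher in MA than in SPA and 3.99-fold higher than in SVC. Its log2 ratio of SPA over SVC was 0.07, about the SD that the spread within arrays gives a ratio (0.0656). H2-DMb1 gave 1011 in SVC, 1287 in SPA and 1726 in MA at its brightest probe, so the arrays lay close together, with MA 1.61-fold above SPA and 2.01-fold above SVC. A further probe of H2-DMb1 was not well above background on any array. The ratios of these genes were thus far below those of H2-Aa, H2-Ab1, H2-Eb1 and Cd74. The H2-DMa probe spans 564 bases of mm9 (chr17:34274300-34274863) for its 60 bases, so it crosses an intron, and the H2-DMb1 probes lie at chr17:34297109-34297168 and chr17:34290109-34290168.

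Ciita encodes the class II transactivator itself. Its brightest probe gave 20.2 in SVC, 10.2 in SPA and 275 in MA, and the signal in SPA was not well above background. MA was therefore at least 26.4-fold higher than SPA, where the lowest signal well above background on the SPA array (12.5) stands for SPA, and it was 16.0-fold higher than SVC. SPA was at least 1.65-fold lower than SVC by the same bound, but this log2 ratio of -0.72 shrank to -0.15 with the normexp background correction. The Ciita probe that disagreed with the brightest was probe 2 by brightness, with 21.6, 23.8 and 32.0 in SVC, SPA and MA. It put MA only 1.61-fold above SPA, and SPA 1.08-fold above SVC. Probe 3 was well above background in MA alone, at 23.3, which was at least 2.24-fold above SPA with no upper limit. Probe 4 was not well above background on any array. Probes 1 and 3 lie near each other at chr16:10526458-10526517 and chr16:10525904-10525963 of mm9, and probes 2 and 4, which the array assigns to cDNA clones, at chr16:10492271-10492330 and chr16:10512788-10512847. Ciita is known to be transcribed from several promoters. Which transcripts each probe reads was not tested.

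Among the class I genes, B2m encodes β2-microglobulin, the light chain of every classical class I molecule. Its brightest probe gave 25328 in SVC, 33468 in SPA and 89624 in MA. It was already bright in the cultured fractions, with SPA 1.30-fold above SVC, and MA was 3.21-fold above SPA and 4.16-fold above SVC. The second probe, which the array assigns to a cDNA clone, gave 137, 159 and 497 and nearly the same ratio of MA over SPA, 3.76-fold. The probes lie at chr2:121978401-121978460 and chr2:121974599-121974658 on the plus strand of mm9.

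H2-K1 and H2-D1 encode the classical heavy chains H-2K and H-2D. H2-K1 gave 31529 in SVC, 38818 in SPA and 82246 in MA, and its second probe gave 8095, 11197 and 25358. The 2 probes placed MA 2.54-fold and 2.72-fold above SPA, and SPA 1.21-fold and 1.36-fold above SVC. H2-D1 gave 15722 in SVC, 24761 in SPA and 55273 in MA, with MA 2.68-fold above SPA and SPA 1.54-fold above SVC. All 3 class I genes thus followed the order SVC < SPA < MA at each of their probes, and no class I signal was saturated. The H2-K1 probes lie at chr17:34133055-34133114 and chr17:34133984-34134043 on the minus strand of mm9, and the H2-D1 probe at chr17:35403886-35403945 on the plus strand. Class I heavy chain genes are near-identical in sequence, and the second H2-K1 probe shares 41 of its 60 bases with a probe for H2-L, a gene that the H-2b haplotype lacks. The H2-L gene, picked out for this likeness after its values were seen, was read at 9140 in SVC, 13760 in SPA and 33415 in MA. Values of single heavy chain genes are therefore uncertain. Every other H2 probe of the 10 genes shared between 24 and 28 of 60 bases with its most similar probe for another H2 gene. Probes were compared with probes, without gaps, and not with the transcripts of other genes, so these counts do not measure shared signal.

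**Figure D2:**
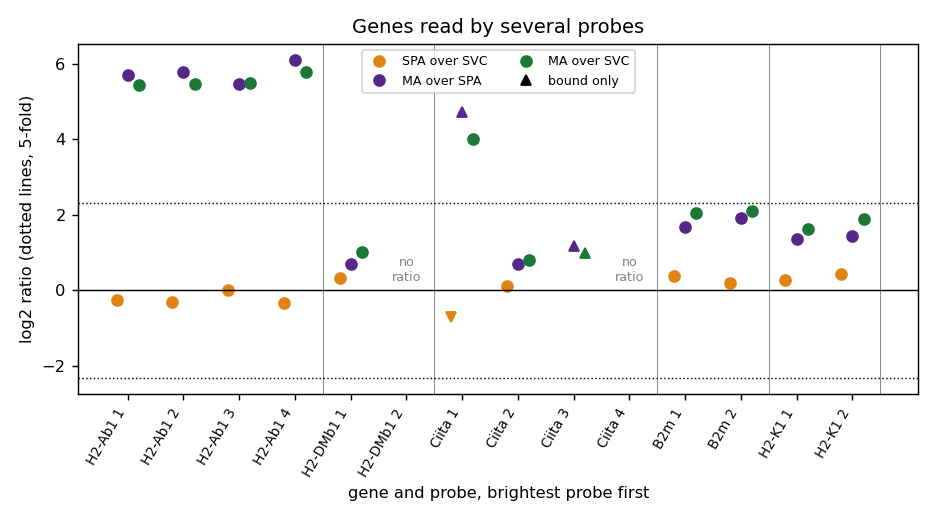
Log2 ratio between arrays at each probe of the genes that have several probes, numbered from the brightest, with orange for SPA over SVC, purple for MA over SPA and green for MA over SVC. Triangles are bounds, where the dimmer array was not well above background, and dotted lines mark 5-fold. The 4 probes of H2-Ab1 lie between 5.48 and 6.11 for MA over SPA, whereas those of Ciita lie between 0.69 and at least 4.72.

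Counted over the group, 0 of the 10 genes were up in SPA by 5-fold or more relative to SVC and 0 were down by as much, beside 0.32% and 0.351% of the 22808 genes that could be read in this comparison. At 2-fold the counts were also 0 and 0, beside 3.89% higher and 3.24% lower, with Ciita counted at its bound. Of the 10 genes, 6 were higher and 4 lower in SPA, beside 56.0% of all genes measured on both arrays that were higher. The 4 that were lower at their brightest probes were H2-Aa, H2-Ab1, Cd74 and Ciita, all of class II, and the probes of Ciita disagreed. All 3 class I genes were among those that were higher. The median log2 ratio was -0.25 over the 7 class II genes and 0.37 over the 3 class I genes, beside 0.05 over the 20822 genes measured on both arrays.

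In MA over SPA, 5 of the 10 genes (H2-Aa, H2-Ab1, H2-Eb1, Cd74 and Ciita) were at least 5-fold higher in MA, beside 5.47% of the 24101 genes read, and 0 were at least 5-fold lower, beside 3.97%. At 2-fold, 9 of the 10 were higher, beside 15.7% of the genes read, and 0 were lower, beside 18.0%. The remaining gene, H2-DMb1, was 1.61-fold higher. The median log2 ratio was 5.10 over the class II genes and 1.42 over the class I genes, beside -0.08 over the 20777 genes measured on both arrays. Ranked from the largest ratio among those 20777 genes, H2-Aa stood at 58, H2-Ab1 at 86, H2-Eb1 at 93 and Cd74 at 146. H2-DMa followed at 1327, B2m at 1605, H2-D1 at 1985, H2-K1 at 2127 and H2-DMb1 at 4260, and Ciita has no rank because its ratio is a bound.

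MA over SVC shares the MA array with the comparison above. Here the same 5 genes were at least 5-fold higher, beside 5.72% of the 23596 genes read, and all 10 were at least 2-fold higher, beside 17.2%. No gene of the 10 was lower, beside 3.96% of the genes read that were at least 5-fold lower and 18.0% that were at least 2-fold lower. The median log2 ratio was 4.61 over the class II genes and 2.05 over the class I genes, beside -0.07 over all genes measured on both arrays. Ciita was measured on both arrays here and stood at 291 of 20174 genes, after H2-Eb1 at 89, H2-Ab1 at 104, H2-Aa at 106 and Cd74 at 192.

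**Figure D3:**
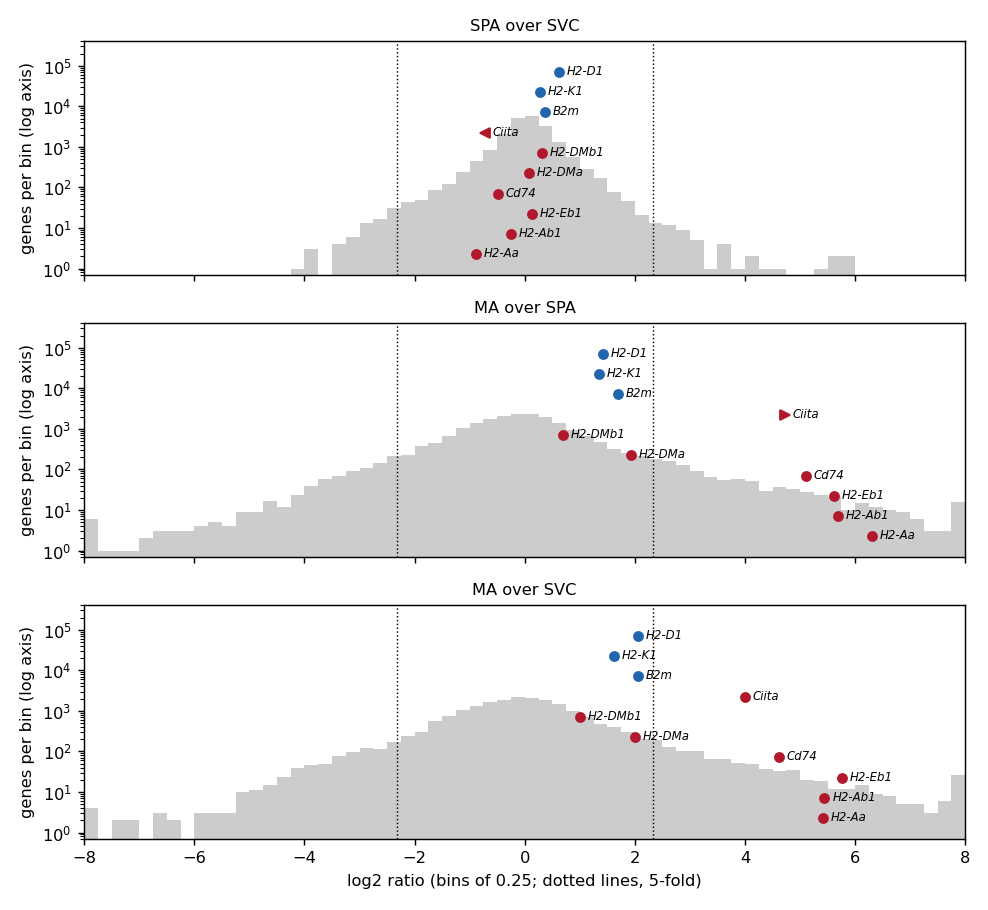
Log2 ratios of the 10 genes (red, class II; blue, class I; their height is arbitrary) over the distribution of all genes read in each comparison (grey, genes per bin of 0.25 on a log axis, with the outer bins holding everything beyond 8). Triangles are bounds and dotted lines mark 5-fold. No gene passes 5-fold in SPA over SVC, and 5 class II genes pass it in MA over SPA and in MA over SVC.

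The start regions of these genes are shown because the class II genes moved by very different amounts, and because CIITA acts at promoter boxes. RefSeq windows of the GRCm38.p6 build, with 250 bases before the start of the gene, were at hand for H2-Aa, H2-Eb1, H2-DMa, H2-DMb1, B2m, H2-K1 and H2-D1. Capitals mark matches, on either strand, to the Y box core ATTGG, its longer form CTGATTGG, the X1 box core CCTAGNNAC, the interferon-stimulated response element core GAAANNGAA, and the longest run of letters shared by H2-Eb1 and H2-DMb1. Each stretch reads 5′ to 3′ on the strand of the gene.
H2-Aa, chr17:34287854-34287933, minus strand: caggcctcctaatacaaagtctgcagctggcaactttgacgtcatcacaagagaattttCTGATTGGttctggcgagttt
H2-Eb1, chr17:34305757-34305836, plus strand: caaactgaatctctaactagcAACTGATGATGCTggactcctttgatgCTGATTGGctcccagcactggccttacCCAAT
H2-DMb1, chr17:34153081-34153160, plus strand: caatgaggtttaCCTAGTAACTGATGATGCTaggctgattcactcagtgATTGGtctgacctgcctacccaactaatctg
B2m, chr2:122147542-122147646, plus strand: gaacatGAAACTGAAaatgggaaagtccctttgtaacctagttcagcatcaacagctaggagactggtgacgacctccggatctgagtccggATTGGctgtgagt
H2-D1, chr17:35262994-35263063, plus strand: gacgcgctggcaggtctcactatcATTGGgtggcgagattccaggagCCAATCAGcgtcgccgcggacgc
H2-K1, chr17:34000334-34000413, minus strand: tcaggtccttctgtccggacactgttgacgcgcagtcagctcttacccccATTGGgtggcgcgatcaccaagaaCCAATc
The Y box core was found in all 4 class II and all 3 class I genes with a window, but it is also in 33.8% of all 32851 windows of this length. Counted from the start of the gene, its first base lay at -48 in H2-Aa, -59 and -35 in H2-Eb1, -61 in H2-DMb1, -198 in H2-DMa, -53 in B2m, -76 and -53 in H2-D1, and -30 and -6 in H2-K1. The longer form, which contains the core and is in 3.83% of windows, was found in H2-Aa, H2-Eb1 and H2-D1. H2-DMb1 held the X1 box core (3.37% of windows), and B2m held the interferon element core (7.13% of windows). The E box CANNTG, searched as well and not marked, was found in 3 of the 4 class II and 0 of the 3 class I genes, beside 66.2% of windows. The run AACTGATGATGCT, picked out after the windows were read, begins at -89 in H2-Eb1 and -92 in H2-DMb1 and is in 2 of the 32851 windows. H2-Eb1 and H2-DMb1 share it although the first was 49.1-fold and the second 1.61-fold higher in MA than in SPA. Only exact matches were searched, so a gene without a marked box may still hold a variant of it. A match is only a match of letters, and the arrays hold no data on binding.

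Of 5 further class II genes, which include those of H2-DO, the inhibitor of H2-DM, only H2-Ob was measured on both arrays, with MA 1.26-fold above SPA. H2-Oa was at least 2.43-fold and H2-DMb2 at least 1.26-fold higher, both well above background in MA alone, so their ratios have no upper limit here. The remaining 2 were not well above background on any array. The 9 regulators outside the 10 genes, which include the RFX and NF-Y subunits that bind the X and Y boxes, had a median log2 ratio of 0.05. Of these regulators, 0 were at 5-fold, beside 5.47% of all genes read that were higher and 3.97% that were lower. They ran from -1.56 for Spi1, a myeloid transcription factor, to 1.39 for Rfxank, a subunit of RFX. Of the processing genes, 7 were measured. Against SPA, 5 of them were at least 2-fold lower in MA, beside 18.0% of all genes read, and 0 at least 2-fold higher, beside 15.7%. Their median log2 ratio was -1.86, and Ctss, the cathepsin that cuts the invariant chain, was 11.2-fold lower. Ctss gave 44408 in SVC, 64841 in SPA and 4825 in MA, so it was dimmest on the array where Cd74 was brightest. Ctss was the 1 processing gene at 5-fold, the other 6 had log2 ratios between -1.94 and -0.03, and March1, a ligase that removes class II from the surface, was not well above background on any array.

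The wider class I pathway mostly moved with B2m, H2-K1 and H2-D1. Of 16 other heavy chain genes that could be measured, 12 were at least 2-fold higher in MA than in SPA, beside 15.7% of all genes read. At least 2-fold lower were 0 of them, beside 18.0%. Their median log2 ratio was 1.51, although many may share signal as described above. The smallest ratio was 0.07, and 2 of the 16 were slightly lower in MA than in SVC, with a lowest log2 ratio of -0.06. Cd1d1, which presents lipids to natural killer T cells, was the one at 5-fold, beside 5.47% of all genes read. It gave 549 in SVC, 1227 in SPA and 11547 in MA, 11.3-fold higher in MA than in SPA. Of 8 peptide loading genes, 5 were higher and 3 lower in MA than in SPA. Of all genes measured on both arrays, 46.2% were higher, so this count is not far from that share. The log2 ratios of the loading genes ran from 1.75 for Tap1, which carries peptides into the endoplasmic reticulum, to -1.29 for Pdia3, a chaperone of that compartment. All 4 measured immunoproteasome genes were higher, with a median of 1.03, and Psmb9 was 5.22-fold higher, beside 5.47% of all genes read at 5-fold. Of 10 class I regulators and genes of interferon gamma signalling, 8 were higher and 2 lower, beside the same 46.2% that were higher. At least 5-fold higher were 2 of them, beside 5.47% of all genes read. Irf1, a transcription factor that interferon gamma induces, gave 1967 in SVC, 2025 in SPA and 14499 in MA, 8.60-fold higher in MA than in SPA, and Socs1, a feedback inhibitor of that signalling, was 5.47-fold higher. Ifng, which encodes interferon gamma and is singled out here after its values were seen, was well above background in MA alone, at 46.9, at least 4.50-fold above SPA.

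**Figure D4:**
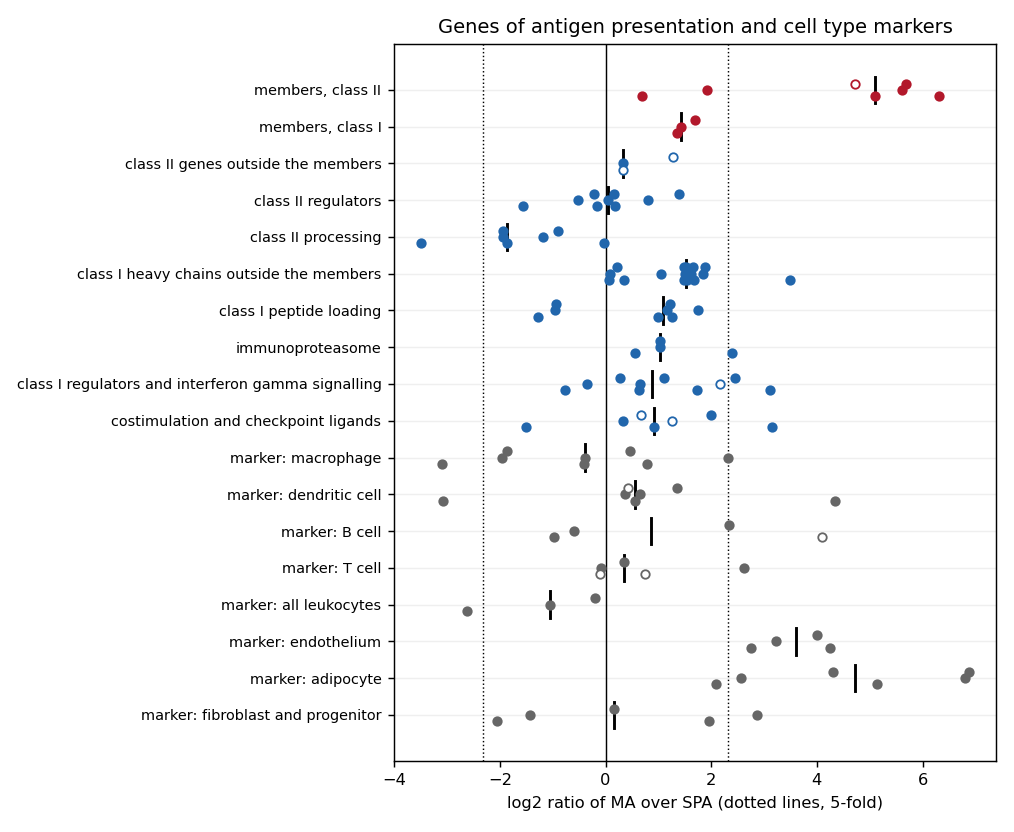
Log2 ratio of MA over SPA for each gene of the MHC group (red), of lists of related genes (blue) and of cell type marker lists (grey), with 1 point per gene at its brightest probe, open where it is a bound, black ticks at list medians and dotted lines at 5-fold. The class II genes lie at a median of 5.10 and the class II processing genes at -1.86. Adipocyte and endothelial markers lie at 4.72 and 3.61.

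Because the fractions are mixtures of cells, marker lists were read on the same arrays. Adipocyte genes marked MA as labelled. Summed over 6 adipocyte genes, the signal in units of each array's 75th percentile came to 8.66 for SVC, 58.3 for SPA and 1956 for MA, and Adipoq and Plin1 were not well above background in SVC. Macrophage genes were present in all fractions, with all 8 well above background on every array. Their summed level was 540 in SVC, 600 in SPA and 184 in MA, most of it from Lyz2. Cd68, a lysosomal protein of macrophages, was 8.58-fold lower in MA than in SPA, whereas Mertk, a receptor for dying cells, was 4.96-fold higher. The 3 genes of all leukocytes were lower in MA than in SPA at their brightest probes, with a summed level of 21.1 in SVC, 25.3 in SPA and 10.3 in MA. Laptm5 was 6.16-fold lower. Ptprc was only 1.15-fold lower, and its 7 probes disagreed, with log2 ratios of MA over SPA from -1.81 to 0.78. Of the 8 macrophage genes, 3 were higher and 5 lower in MA than in SPA. This count and that of the leukocyte genes stand beside 46.2% of all genes measured on both arrays that were higher in MA. The part of macrophages and other leukocytes in the class II signal of MA was not tested.

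Markers of other cells were read in the same way. The counts of direction below stand beside 46.2% of all genes measured on both arrays that were higher in MA than in SPA. All 4 endothelial genes were at least 5-fold higher in MA than in SPA, beside 5.47% of all genes read. Pecam1 was 6.70-fold, Cdh5 18.9-fold, Kdr 16.0-fold and Tek 9.31-fold higher. Their summed level was 1.03 in SVC, 1.24 in SPA and 19.3 in MA. Among 8 dendritic cell genes, Ccr7, the receptor that guides mature dendritic cells and lymphocytes to lymph nodes, was 20.4-fold higher and Itgax 8.40-fold lower. Of the 7 that could be read, 6 were higher and 1 lower in MA than in SPA. Their summed level was 4.07, 8.13 and 2.62 in SVC, SPA and MA, most of it from Itgax in SPA, Clec9a was well above background in MA alone and Xcr1 on no array. Of the 4 B cell genes that could be read, 2 were higher and 2 lower in MA than in SPA. Cd79b was at least 17.1-fold higher. Ms4a1 and Pax5 were lower at their brightest probes, but the 2 probes of Ms4a1 disagreed, with log2 ratios from -0.97 to at least 2.78. Cd79a was not well above background on any array. The 5 T cell genes summed to 6.12, 6.67 and 7.62 in SVC, SPA and MA, most of it from Cd3e and Cd4. In MA over SPA, 3 were higher and 2 lower. Cd3d, 6.16-fold higher, was the 1 gene called at 2-fold or more, beside 15.7% of all genes read that were higher by as much. Cd3g, named after its values were seen, was well above background in MA alone, at least 1.68-fold above SPA with no upper limit. The part of endothelial cells, dendritic cells and lymphocytes in the class II signal of MA was not tested.

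The genes with the profile most like the class II genes were found by the distance between log2 levels over the 3 arrays, each gene centred on its own mean, among 19962 genes well above background on all 3. Against the mean profile of the 6 class II genes that could be used (all but Ciita), the nearest genes included A930028N01Rik at a distance of 0.06, Amhr2 at 0.09, Pde4b at 0.10 and Gchfr at 0.11. The class II genes themselves lay between 0.63 (Cd74) and 2.70 (H2-DMb1) from that mean, since the H2-DM genes differ so much from the rest, and 95 genes lay within 0.5. Against the mean of the 3 class I genes, the nearest were a transcript known only by an identifier, H2-K2, H2-T-ps, a further such transcript and 1700080G18Rik, at distances from 0.01 to 0.03, with 1109 genes within 0.5. The class I genes lay between 0.15 and 0.21 from their mean. With 3 arrays, such a distance rests on 2 independent differences only.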

How the data were processed

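RNA of 1 SVC, 1 SPA and 1 MA sample was hybridized, from 50 ng of total RNA labelled with Cy3, to 1-colour Agilent 60-base arrays. The authors deposited, for each spot, an intensity from the software Agilent Feature Extraction (version 10.7.3.1 in the submitters' processing notes). It is the processed signal after background subtraction, with a mark for signals well above background. The mean signal and the local background were used for an alternative. The authors also deposited 1 value per spot as a ratio, equal to the processed signal times 1 constant per array within a relative tolerance of 1.37e-06, with medians of 0.0743 in SVC, 0.0783 in SPA and 0.0789 in MA. How that constant was chosen is not given in the sources used here.

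Of 62976 spots per array, 59305 were not controls, and between 58.6% and 61.4% of these were well above background. No signal was saturated. Between 75 and 129 outlier spots per array were left out, none of them at the 10 genes. Slide and scan were the same for all arrays. Signals were divided by the 75th percentile of their array, taken without control spots, and put on the log2 scale (430 in SVC, 439 in SPA and 366 in MA). Repeated spots were averaged, and the brightest probe over the 3 arrays stood for a gene. A call needed 5-fold, the limit that the study used, and a brighter array well above background. Where the dimmer array was not, the ratio is a bound against whichever was higher, the dim signal itself or the lowest one on that array well above background (13.9 in SVC, 12.5 in SPA, 10.3 in MA). Signal over background limits what dim probes can show, and precision is limited by having 3 arrays.

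The accessions of 32994 of 56605 named probes were found in RefSeq's GRCm38.p6 gene table, 1535 of them with another symbol, which added 0 probes to the 10 genes. Positions of probes are the array's own, in mm9. Named genes are the 10 genes, those of each list at 5-fold in a comparison (otherwise its extremes), and the 5 genes nearest each class profile. Of the listed genes, H2-Q6 and Psme2 were not read. Results for some genes that these rules name are not reported here. The members and lists were chosen with earlier results of these data known. The 9 alternatives were normexp background correction (offset 50), quantile normalization, the percentile over probes detected on every array, the deposited values, 2 filters on dim probes, 2 rules for several probes, and dropping spots whose local background was outlying. Ratio calling was tested on simulated data. Python 3.11.15, numpy 2.4.6, pandas 2.3.3, matplotlib 3.10.9, R 4.3.3 and limma 3.58.1 were used.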

Additional observations from a re-analysis of the deposited data

How the results depend on the processing

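Under 9 alternatives, no gene of the 10 changed direction in any comparison. The counts of genes at least 5-fold higher stayed at 5 in MA over SPA, except 4 with the median of the probes and 4 where both arrays had to be well above background. In MA over SVC the count was 5, except 4 with the median of the probes and 4 with the normexp correction. The gene lost was Ciita each time. Its log2 ratio of MA over SPA ran from 1.16, a lower bound with the median of its probes, to 5.02. Its ratio of MA over SVC was 2.23 with normexp and at least 0.98 with the median of its probes. The other counts of calls were 0 in every setting. The ratio of MA over SPA ran from 5.01 to 6.39 for H2-Aa, from 5.48 to 6.11 for H2-Ab1, from 5.42 to 5.83 for H2-Eb1 and from 4.91 to 5.29 for Cd74. The value of H2-Aa was lowest with normexp, whose offset is added to every signal and weighs most on dim ones. Ciita gave no ratio of MA over SPA where both arrays had to be well above background. The median of all genes lay between -0.09 and 0.05 on the log2 scale in each scaling. No paired analysis was possible because each group is 1 array, and for the same reason no replicate could be left out.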

Other observations

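Genes that T cells need beside the MHC moved unevenly. Of 7 genes of costimulation and checkpoint ligands, 6 were higher and 1 lower in MA, at a median of 0.91 for the log2 ratio to SPA. Of all genes measured on both arrays, 46.2% were higher in MA than in SPA. Cd86, which gives T cells their second signal through CD28, gave 112 in SVC, 84.0 in SPA and 622 in MA, 8.89-fold higher in MA than in SPA and 6.54-fold higher than in SVC. Cd80, its close relative and named here after its values were seen, went the opposite way, with 303 in SVC, 386 in SPA and 113 in MA. Between the cultured fractions, 0 of the 5 genes well above background on an array reached 5-fold. Of all genes read, only 0.32% were higher and 0.351% lower in SPA by as much.

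Of 5 fibroblast and progenitor genes, 3 were higher and 2 lower in MA than in SPA, beside 46.2% of all measured genes that were higher. The summed level of the 5, in units of the 75th percentile, was 247, 118 and 354 in SVC, SPA and MA. Col3a1, a fibrillar collagen, was 7.32-fold higher in MA than in SPA at its brightest probe, but its 3 probes disagreed, with log2 ratios from -2.26 to 2.87. Pdgfra, a receptor of progenitor cells in fat, was 5.76-fold lower in MA than in SVC at its brightest probe. Its 3 probes gave log2 ratios from -3.23 to -1.72, so not all reached 5-fold.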
